A study of Mus musculus with 7 samples.

Results

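Pericytes and vascular smooth muscle cells, together called mural cells, coat the outside of blood vessels. The 8 genes described here, of the 37620 gene identifiers counted, are common markers of them: Pdgfrb, Rgs5, Kcnj8 and Abcc9 for pericytes, and Acta2, Tagln, Myh11 and Des for smooth muscle and other contractile mural cells. They were chosen by name as marker genes, and all 8 had reads in every tumour and were tested.

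Mural cells are drawn to new vessels by PDGF-B, which endothelial cells release and which binds the receptor that Pdgfrb encodes. Pericytes sit on capillaries, where in the brain they help to keep the blood-brain barrier, and smooth muscle cells ring arteries and arterioles and set their width by contraction. The contractile genes are switched on by serum response factor, SRF, together with myocardin or its relatives MRTF-A and MRTF-B. Acta2 and Tagln are also made by myofibroblasts and by other cells with a strong actin skeleton, whereas Myh11 is more restricted to smooth muscle.

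RNA was sequenced from 7 brain tumours of nude mice, a strain without a thymus, after injection of mouse glioblastoma stem-like cells, which had been made from subventricular zone neural stem cells. The GSC2 line carried shp53, Nf1-/- and CDK4 and gave 3 tumours, and the GSC1 line carried lgT/Ras and gave 4, all described as independent. Both had been cultured for 10 to 15 passages. Since 1 line stands for each genotype, a difference cannot be assigned to genotype apart from line, and the sources used here do not give the promoters of the introduced genes or the age of the mice. Tumour and host are both mouse, so a read cannot be assigned to either, and in such bulk samples fewer cells of a type and less RNA per cell cannot be told apart. The tumours are called GSC2-1 to GSC2-3 and GSC1-1 to GSC1-4.

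The libraries held 18643155 to 32643408 reads on genes. In GSC2-3, GSC1-3 and GSC1-4 long transcripts were lowest relative to short ones (a median log2 difference of -0.70, -0.40 and -0.36, against 0.02 to 0.64 in the other 4). The values were graded, and these libraries were taken as the lowest 3, a number set in advance of any gap. Neuron and mature oligodendrocyte genes, averaged into a brain score in log2 CPM, ranged from 5.03 in GSC1-2 to 8.71 in GSC1-3, so markers of normal brain differed among tumours of the same line. CPM are reads per 1000000 of the library size as scaled by the TMM method.

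Per transcript length, Rgs5 had the highest median of the 8 genes over the 7 tumours, at 17.5 CPM per 1000 bases. It was followed by Tagln at 12.4, Pdgfrb at 7.61, Acta2 at 5.88, Kcnj8 at 1.66, Abcc9 at 0.957, Des at 0.892 and Myh11 at 0.102 CPM per 1000 bases. Only 2 steps of this order held in all 7 tumours, Acta2 above Kcnj8 and Des above Myh11. Rgs5 was above Tagln in 5 of 7, Tagln above Pdgfrb in 5, Pdgfrb above Acta2 in 4, Kcnj8 above Abcc9 in 5 and Abcc9 above Des in 4, so these neighbours did not differ beyond their spread. The broadest ranges were those of Tagln, from 4.46 to 183, and Acta2, from 2.60 to 65.1 CPM per 1000 bases.

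**Figure D1:**
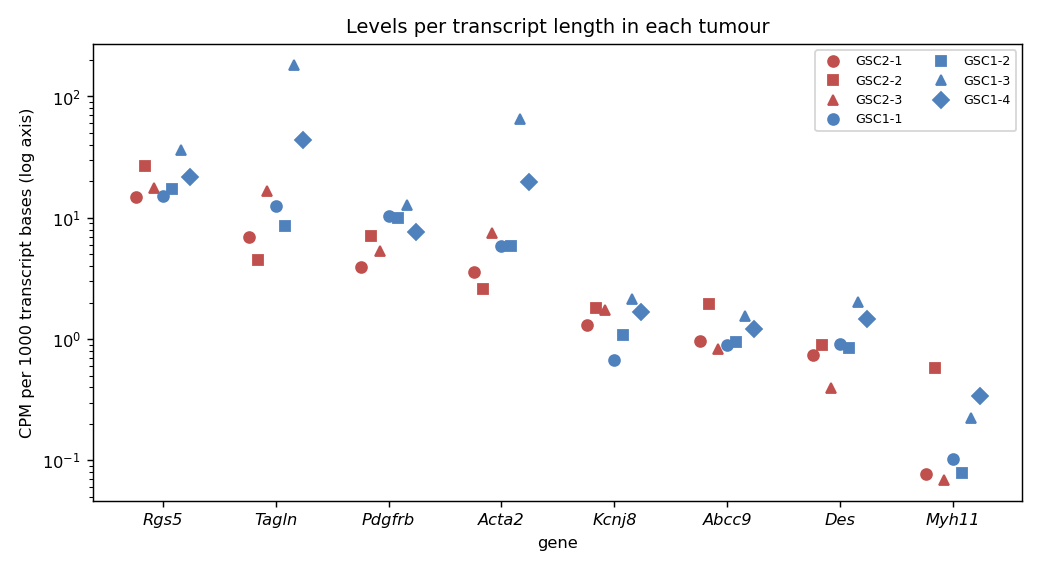
Level of each gene in each tumour, in CPM per 1000 bases of the longest annotated transcript on a log axis, with GSC2 tumours in red and GSC1 tumours in blue. Tagln and Acta2 reach 183 and 65.1 in GSC1-3, far above the other tumours, while Rgs5 stays between 14.7 and 36.3.

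None of the 8 genes passed edgeR's quasi-likelihood test of GSC2 against GSC1 at a Benjamini-Hochberg adjusted p of 0.05, and the share called among all 16068 genes tested was 0%. At an unadjusted p under 0.05 there were 3 of the 8, Pdgfrb, Acta2 and Tagln, all with a negative log2 fold change, against 4.21% of all genes. That count was 0 to 3 with 1 tumour left out, falling to 0 without GSC2-1 or without GSC2-3. It was 1 without GSC1-3, without GSC1-4, without both, or without GSC2-2. With 1 tumour left out, the genes with such a p ranged from 425 of 16520 (without GSC2-1) to 721 of 15786 (without GSC1-2). Without both GSC1-3 and GSC1-4 there were 2747 of 16165, so the 4.21% of the main fit is no background for the 1 of 8 there. In the other fits 0 of the 8 passed as well, while the share of all genes called was 1.2% in DESeq2, 0.00622% in limma-voom, 0.00437% without the low-count filter and 0.498% with the brain score as a covariate. It was 0.348% without the 3 libraries in which long transcripts read lowest and 0.272% without both GSC1-3 and GSC1-4. For 1 of the 8, Pdgfrb, no GSC2 tumour overlapped with a GSC1 tumour, against 5.58% of all genes. Log2 fold changes were positive for 3 of the 8 and negative for 5, with a median of -0.56, beside a median of -0.03 over all genes, of which 7437 were positive and 8631 negative.

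**Figure D2:**
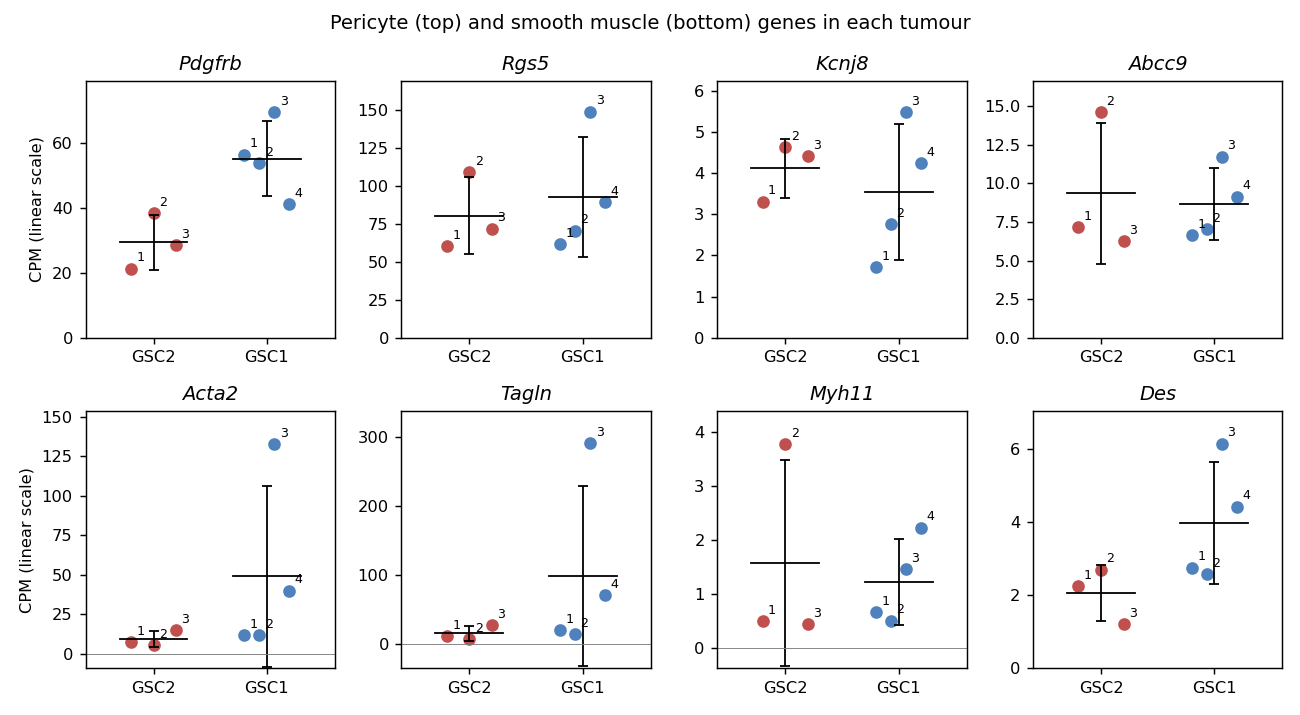
CPM of each gene in each tumour on linear axes, with pericyte genes above and smooth muscle genes below, GSC2 left of GSC1. Points carry the tumour number, and bars give the mean with SD of 3 GSC2 and 4 GSC1 tumours. Pdgfrb is the gene whose lines do not overlap, and GSC1-3 holds the highest Acta2 and Tagln.

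Among the pericyte genes, Pdgfrb encodes the receptor through which mural cells are recruited. It was at 21.3, 38.3 and 28.6 CPM in GSC2-1 to GSC2-3, against 56.4, 53.7, 69.5 and 41.3 CPM in GSC1-1 to GSC1-4. Every GSC2 tumour lay under every GSC1 tumour, with GSC2-2 and GSC1-4 nearest to each other. The means were 29.4 ± 8.56 CPM in GSC2 and 55.2 ± 11.6 CPM in GSC1 (SD, n = 3 and n = 4). The log2 fold change was -0.91 (SE 0.29, 95% interval -1.58 to -0.23, edgeR quasi-likelihood adjusted p = 0.955). Over the 19 alternative fits it stayed between -1.15 and -0.72, and its lowest adjusted p was 0.121, with the brain score as a covariate. Pdgfrb is also known from fibroblasts, and the fibroblast markers in these libraries are given further on.

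Rgs5 encodes a regulator that shortens signalling by G proteins and is one of the most abundant pericyte transcripts in brain. It was at 60.2, 109 and 71.9 CPM in GSC2-1 to GSC2-3, against 61.8, 70.6, 149 and 89.2 CPM in GSC1-1 to GSC1-4. GSC1-3 and GSC2-2 were the highest of their lines, and the lines overlapped over most of their range. The log2 fold change was -0.20 (SE 0.37, 95% interval -1.07 to 0.67). It was 0.09 without GSC1-3 and -0.03 without GSC2-1, so its sign was not settled.

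Kcnj8 and Abcc9 encode the Kir6.1 pore and the SUR2 regulatory subunit of the vascular ATP-sensitive potassium channel, which relaxes vessels when it opens. They lie side by side on chromosome 6 with 0 protein-coding genes between them. Kcnj8 was at 3.31, 4.63 and 4.41 CPM in GSC2-1 to GSC2-3, against 1.71, 2.76, 5.48 and 4.24 CPM in GSC1-1 to GSC1-4. The GSC2 tumours lay within the range of the GSC1 tumours (log2 fold change 0.22, SE 0.47, 95% interval -0.87 to 1.30). Abcc9 was at 7.17, 14.6 and 6.27 CPM in GSC2-1 to GSC2-3, against 6.66, 7.06, 11.7 and 9.14 CPM in GSC1-1 to GSC1-4. GSC2-2 was the highest of all 7 and GSC2-3 the lowest (log2 fold change 0.12, SE 0.40, 95% interval -0.81 to 1.04), and without GSC2-2 the log2 fold change was -0.36. Abcc8, the gene for the pancreatic and neuronal counterpart SUR1, was at 1.98 to 6.77 CPM in GSC2 and 1.25 to 10.2 CPM in GSC1. Kcnj8 over Abcc9, per transcript length, was 1.36, 0.932 and 2.07 in GSC2-1 to GSC2-3 and 0.755, 1.15, 1.38 and 1.36 in GSC1-1 to GSC1-4, with the highest ratio in GSC2-3, the library in which long transcripts read lowest. The longest transcripts of the pair are 2548 and 7499 bases, and the part of length in this ratio was not tested.

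The ratio of Pdgfrb to Rgs5 per transcript length separated the lines. It was 0.267, 0.266 and 0.301 in GSC2-1 to GSC2-3, against 0.690, 0.575, 0.352 and 0.349 in GSC1-1 to GSC1-4. Both genes are pericyte markers, so the ratio shows that they did not vary in proportion. It was picked out after its values had been seen and carries no test. Abcc9 over Rgs5 stayed much closer, at 0.0476 to 0.0733 in GSC2 and 0.0430 to 0.0590 in GSC1.

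The smooth muscle genes were more scattered. Acta2 encodes smooth muscle alpha-actin, the thin-filament actin of contractile mural cells. It was at 7.28, 5.30 and 15.2 CPM in GSC2-1 to GSC2-3, against 11.97, 11.8, 132 and 39.9 CPM in GSC1-1 to GSC1-4. GSC1-3 and GSC1-4 were above all others, whereas GSC1-1 and GSC1-2 lay below GSC2-3. The log2 fold change was -2.40 (SE 0.97, 95% interval -4.68 to -0.13, edgeR adjusted p = 0.9999). It was -1.24 without GSC1-3 and -0.40 without both GSC1-3 and GSC1-4, and it was -2.37 once each library's trend with transcript length was taken out.

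Tagln encodes transgelin, or SM22, an actin-binding protein of smooth muscle. It was at 11.04, 7.12 and 26.7 CPM in GSC2-1 to GSC2-3, against 19.8, 13.7, 291 and 70.1 CPM in GSC1-1 to GSC1-4. The tumours stood in the same order as for Acta2, with GSC1-3 highest and GSC2-2 lowest. The log2 fold change was -2.72 (SE 1.16, 95% interval -5.45 to -0.0004, edgeR adjusted p = 0.9999), -1.25 without GSC1-3 and -0.21 without both GSC1-3 and GSC1-4. Tagln and Acta2 have the shortest transcripts of the 8 genes, 1595 and 2035 bases, and their 3 highest tumours are the 3 libraries in which long transcripts read lowest. With the length trend removed the log2 fold change of Tagln was -2.69. Exons of Pcsk7 and Gm48529 overlap Tagln on the other strand in a later annotation, as do those of 5330439B14Rik for Abcc9 and Gm15179 for Des. The sources do not state whether the counting used strand, so the levels of Tagln, Abcc9 and Des are uncertain to that extent.

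Myh11 encodes the smooth muscle myosin heavy chain, the motor of contraction. It was at 0.509, 3.79 and 0.451 CPM in GSC2-1 to GSC2-3, against 0.666, 0.515, 1.47 and 2.24 CPM in GSC1-1 to GSC1-4. These levels rest on 10, 108 and 9 reads in the GSC2 tumours and on 23, 14, 37 and 47 reads in the GSC1 tumours, so counting error is large outside GSC2-2. GSC2-2, the tumour with the least Acta2 and Tagln, had the most Myh11. The log2 fold change was 0.39 (SE 0.91, 95% interval -1.75 to 2.53), and it was -1.33 without GSC2-2. Per transcript length, Myh11 over Acta2 was 0.0217, 0.222 and 0.00920 in GSC2-1 to GSC2-3 and 0.0173, 0.0135, 0.00345 and 0.0174 in GSC1-1 to GSC1-4. This ratio was highest in GSC2-2, the library in which long transcripts read highest (0.64), and lowest in GSC1-3, where they read low (-0.40). The longest transcripts of Myh11 and Acta2 are 6549 and 2035 bases. With the length trend removed the log2 fold change of Myh11 was 0.07, and the part of length in the ratio was not tested.

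Des encodes desmin, the intermediate filament protein of muscle cells, also found in pericytes. It was at 2.24, 2.70 and 1.203 CPM in GSC2-1 to GSC2-3, against 2.75, 2.57, 6.16 and 4.43 CPM in GSC1-1 to GSC1-4. Only GSC1-2 fell within the range of the GSC2 tumours (log2 fold change -0.95, SE 0.50, 95% interval -2.11 to 0.20). The log2 fold change was -0.39 without both GSC1-3 and GSC1-4, and -0.11 without the 3 libraries in which long transcripts read lowest. Desmin is made in skeletal and heart muscle too. The list of 10 genes of these tissues summed to 3.66 to 8.32 CPM in GSC2 and 6.91 to 12.7 CPM in GSC1, and 6 of the 10 had no read in at least 1 tumour. Among its defining genes Ckm was at 0.381 CPM or less and Myog at 0.150 CPM or less in every tumour. Tnnt2, the heart troponin T gene, was at 0.916, 1.02 and 0.952 CPM in GSC2-1 to GSC2-3, against 9.21, 4.89, 4.53 and 1.14 CPM in GSC1-1 to GSC1-4, and no GSC2 tumour overlapped with a GSC1 tumour (log2 fold change -2.36, SE 0.69, edgeR adjusted p = 0.816). Myh7, a myosin heavy chain gene of heart and slow muscle, was at 1.48, 2.45 and 5.21 CPM in GSC2-1 to GSC2-3, against 1.97, 0.845, 5.13 and 4.43 CPM in GSC1-1 to GSC1-4. Tnnt2 and Myh7 thus had levels in the range of Des, and the part of these tissues in the Des values was not tested. Tnnt2 and Myh7 were picked out after their values had been seen.

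**Figure D3:**
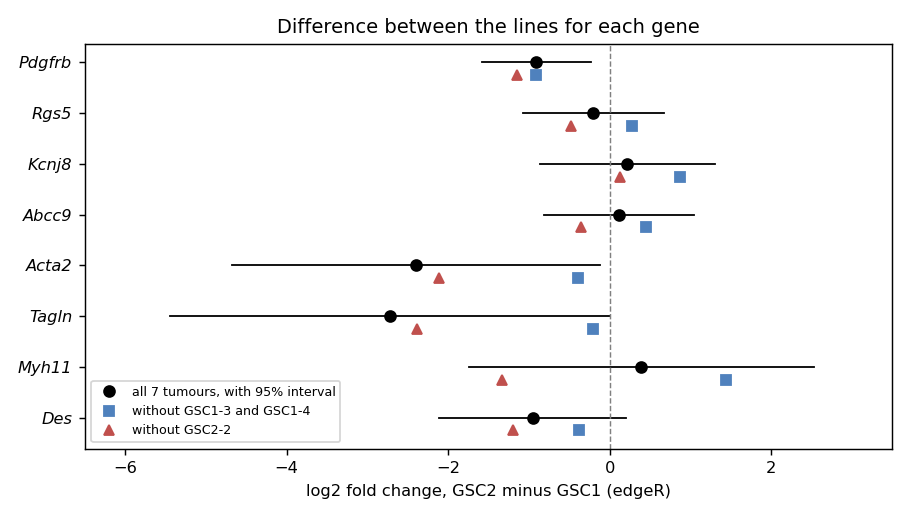
Log2 fold change of each gene, GSC2 minus GSC1, from edgeR. Black points and lines give the value and 95% interval over all 7 tumours, squares the value without GSC1-3 and GSC1-4, and triangles the value without GSC2-2. Acta2 and Tagln move to -0.40 and -0.21 without the 2 GSC1 tumours, Myh11 moves to -1.33 without GSC2-2, and Pdgfrb is at -0.92 and -1.15 in these settings.

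Serum response factor binds the CArG box, a run of A and T of 6 bases between CC and GG, and the start of Acta2 is a textbook case. The promoters of 5 of the 8 genes were in the RefSeq table of mouse build GRCm38.p6, and the 250 bases before the start are shown for the contractile gene that varied most among these 5 (Acta2, chr19:34255374-34255623, minus strand), the other contractile gene (Des, chr1:75360042-75360291, plus strand) and the most abundant pericyte gene (Rgs5, chr1:169655251-169655500, plus strand). Capitals mark matches to the CArG box with 1 C or G allowed among the 6 inner bases, called CArG-like here.
Acta2: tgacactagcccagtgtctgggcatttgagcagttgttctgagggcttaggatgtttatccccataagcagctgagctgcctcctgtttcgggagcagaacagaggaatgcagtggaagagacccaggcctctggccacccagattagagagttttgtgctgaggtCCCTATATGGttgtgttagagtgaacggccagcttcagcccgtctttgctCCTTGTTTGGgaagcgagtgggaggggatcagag
Des: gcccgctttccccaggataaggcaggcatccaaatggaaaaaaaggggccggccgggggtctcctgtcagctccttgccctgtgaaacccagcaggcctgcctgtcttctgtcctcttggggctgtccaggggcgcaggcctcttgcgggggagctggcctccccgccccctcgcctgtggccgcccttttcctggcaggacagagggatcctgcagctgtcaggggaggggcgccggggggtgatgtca
Rgs5: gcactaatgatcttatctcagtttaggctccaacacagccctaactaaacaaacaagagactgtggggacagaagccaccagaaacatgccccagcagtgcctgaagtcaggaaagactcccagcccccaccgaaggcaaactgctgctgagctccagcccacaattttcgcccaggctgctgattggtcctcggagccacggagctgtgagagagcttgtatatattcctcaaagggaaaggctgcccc
Acta2 held 2 CArG-like runs, CCCTATATGG at -84 and CCTTGTTTGG at -34, counted from the transcript start to the first base of the run. Neither Des nor Rgs5 held one in this window, nor did Kcnj8 or Abcc9. The CArG-like pattern, which reads the same on both strands, was in 8.59% of 32536 promoters of this length, and the exact CArG box was in 1.48% and in none of the 5. The E-box CANNTG, searched on both strands, was in 66.2% of all promoters and in Acta2, Des, Kcnj8 and Abcc9 but not in Rgs5. A match describes these letters only.

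The genes of SRF and its partners did not have the pattern of Acta2. Srf was at 45.5, 44.4 and 36.9 CPM in GSC2-1 to GSC2-3, against 62.0, 68.7, 36.4 and 36.4 CPM in GSC1-1 to GSC1-4. The 2 GSC1 tumours with the most Acta2 thus had the least Srf, with GSC2-3 almost level with them. Mrtfa was at 31.0 to 40.8 CPM in GSC2 and 20.5 to 56.5 CPM in GSC1, lowest in GSC1-3. Mrtfb was at 35.1 to 55.8 CPM in GSC2 and 16.5 to 53.2 CPM in GSC1, lowest in GSC1-4. The longest transcripts of Mrtfa and Mrtfb are 4392 and 8295 bases, and long transcripts read low in GSC1-3 and GSC1-4. The part of length in these values was not tested. Myocd, the myocardin gene of smooth muscle and heart, reached at most 0.105 CPM in GSC2 and 0.0290 CPM in GSC1 and was under the filter for testing.

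Across the 7 tumours Acta2 and Tagln varied together. Over log2 CPM their Pearson r was 0.995 (exact permutation p = 0.000198, the smallest that 5040 arrangements give here, adjusted p = 0.00556) and Spearman rho was 1 (exact permutation p = 0.000397, adjusted p = 0.0111). Without the 2 tumours farthest from the median of Tagln r was 0.953. Centred within each line r was 0.995 (exact permutation p = 0.00694, the smallest that 144 arrangements give, adjusted p = 0.194). A single pair could not pass over 28 pairs there, even at this smallest p, so not passing is no evidence against the relation. Tagln over Acta2 per transcript length was 1.94, 1.71 and 2.24 in GSC2-1 to GSC2-3 and 2.12, 1.48, 2.81 and 2.24 in GSC1-1 to GSC1-4.

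No other of the 28 pairs passed. The highest was Abcc9 with Myh11 (r = 0.914, exact permutation p = 0.00774, adjusted p = 0.108, rho = 0.821, exact permutation p = 0.0341, adjusted p = 0.318). Its r was 0.947 with the 2 farthest tumours left out. In each pair these are the tumours farthest from the median of the second gene named, here Myh11. Abcc9 and Myh11 have long transcripts, of 7499 and 6549 bases, and the part of length in their r was not tested. The next was Rgs5 with Abcc9 (r = 0.849, exact permutation p = 0.0198, adjusted p = 0.185, rho = 0.643, exact permutation p = 0.139, adjusted p = 0.471). Its r was 0.715 with the 2 farthest tumours left out. Within lines these 2 had r = 0.918 and 0.874, both with an exact permutation adjusted p of 0.292. Of the 28 coefficients 27 were positive, with a median of 0.57. Without GSC1-3 there were 23 positive, with a median of 0.21 and a lowest of -0.54. Acta2 and Myh11, both contractile genes, had r = 0.164 (exact permutation p = 0.722, adjusted p = 0.757) and rho = 0 (exact permutation p = 1, adjusted p = 1), but r was 0.924 with the 2 farthest tumours left out, so the low value rests on those tumours. The channel subunits Kcnj8 and Abcc9 had r = 0.614 (exact permutation p = 0.142, adjusted p = 0.331) and rho = 0.607 (exact permutation p = 0.167, adjusted p = 0.471), with r = 0.332 when the 2 farthest tumours were left out.

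**Figure D4:**
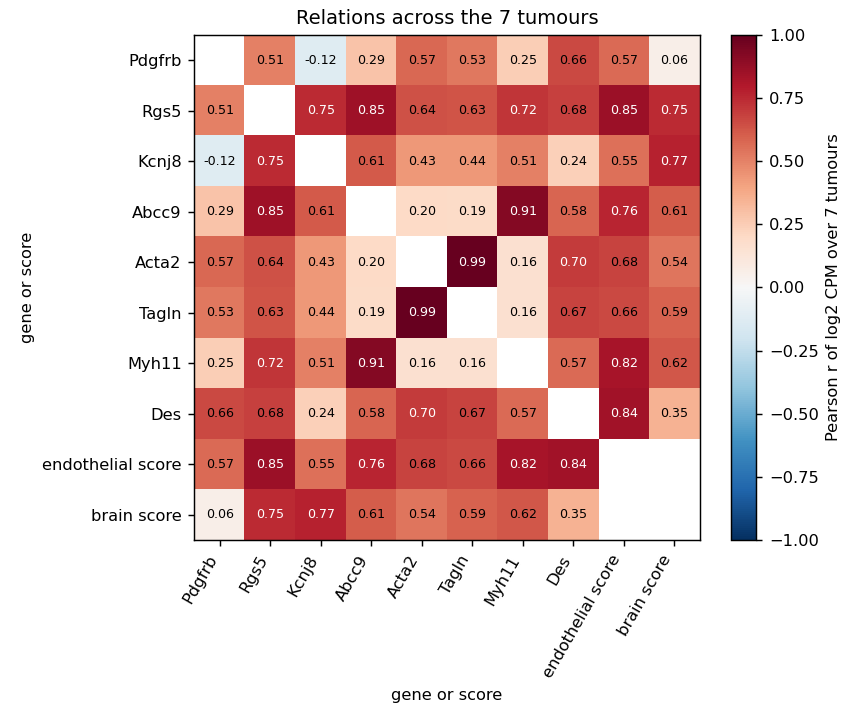
Pearson r of log2 CPM over the 7 tumours between the 8 genes, and between each gene and the endothelial and brain scores. Acta2 with Tagln (0.995) is the pair that passed after adjustment, and Acta2 and Tagln have 0.16 with Myh11.

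Mural cells lie on endothelium, and all 18 endothelial marker genes had reads in every tumour. Their mean log2 CPM, the endothelial score, was 3.96, 4.60 and 4.07 in GSC2-1 to GSC2-3, against 4.21, 4.20, 4.89 and 4.88 in GSC1-1 to GSC1-4. All 8 genes had a positive r with it and 0 of 8 passed after adjustment. The share of all genes with a positive r was not computed. Rgs5 had r = 0.855 (exact permutation p = 0.0135, adjusted p = 0.0540, rho = 0.821, exact permutation p = 0.0341, adjusted p = 0.0910). Its r was 0.90 with the 2 farthest tumours left out, which here are those farthest from the median of the score. Des had r = 0.836 (exact permutation p = 0.00952, adjusted p = 0.0540, rho = 0.929, exact permutation p = 0.00675, adjusted p = 0.0540). Its r was 0.473 with the 2 farthest tumours left out. Myh11 had r = 0.823 (exact permutation p = 0.0272, adjusted p = 0.0725, rho = 0.821, exact permutation p = 0.0341, adjusted p = 0.0910). Its r was 0.934 with the 2 farthest tumours left out. Within lines 0 of 8 passed, with r = 0.883 for Rgs5, 0.802 for Des and 0.909 for Myh11 and a lowest exact permutation adjusted p of 0.111. A single relation could not pass there, since the smallest p of 144 arrangements stays above 0.05 after adjustment over 8. Without centring, and with GSC2-2 left out, 6 passed by Pearson r and 0 by Spearman rho. With any other single tumour left out 0 passed.

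With the endothelial score as a covariate in edgeR, the log2 fold changes were -0.80 for Pdgfrb, 0.23 for Rgs5, 0.75 for Kcnj8 and 0.46 for Abcc9. They were -0.62 for Acta2, -0.35 for Tagln, 1.08 for Myh11 and -0.48 for Des, and none of the 8 passed. The SE was 1.07 for Acta2 and 1.33 for Tagln there. When the brain score was the covariate instead, the log2 fold changes were -0.96 for Pdgfrb (SE 0.25, edgeR adjusted p = 0.121), -2.08 for Acta2 (SE 0.52, adjusted p = 0.107) and -2.17 for Tagln (SE 0.58, adjusted p = 0.126). The endothelial score was highest in GSC1-3 and GSC1-4, the tumours with the most Acta2 and Tagln. With this score the SE of both genes exceeded the size of their log2 fold changes, so the 2 covariates are not ranked here. The part of vessel or brain content in the Acta2 and Tagln values was not tested. Log2 fold changes of the endothelial genes themselves were negative for 17 of 18, with a median of -0.31. Vwf, the von Willebrand factor gene, was at 38.2 to 69.3 CPM in GSC2 and 56.6 to 163 CPM in GSC1 (log2 fold change -1.02, SE 0.42), Pecam1, an endothelial adhesion gene, at 17.5 to 27.3 CPM in GSC2 and 20.8 to 38.5 CPM in GSC1, and neither passed.

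Most fibroblast markers were highest in the tumour with the most Acta2 and Tagln. Of the 15 fibroblast genes 11 were highest in GSC1-3 and 3 in GSC1-4, and the mean log2 CPM of the list was 3.84, 4.41 and 4.25 in GSC2-1 to GSC2-3, against 3.72, 3.65, 6.19 and 5.49 in GSC1-1 to GSC1-4. Col1a1, a chain of type I collagen, was at 87.6, 94.4 and 132 CPM in GSC2-1 to GSC2-3, against 100.4, 102, 759 and 232 CPM in GSC1-1 to GSC1-4. Summed over the list the range was 1131 to 1612 CPM in GSC2 and 2226 to 3764 CPM in GSC1. Much of this sum is Fn1, the fibronectin gene, at 291 to 994 CPM in GSC2 and 720.2 to 3186 CPM in GSC1. Without Fn1, left out after its values had been seen, the other 14 genes summed to 606, 817 and 840.2 CPM in GSC2-1 to GSC2-3, against 666, 526, 2965 and 1505 CPM in GSC1-1 to GSC1-4, and the lines overlapped. Dpt, a dermatopontin gene of fibroblasts, had no read in GSC2-1 and GSC2-3 and reached 3.66 CPM in GSC1-3. Log2 fold changes were negative for 12 of the 14 tested, with a median of -0.83, and 0 passed. Col3a1, a chain of type III collagen, came nearest at 164 ± 34.4 CPM in GSC2 and 304 ± 119 CPM in GSC1 (SD, n = 3 and n = 4, log2 fold change -0.89, SE 0.33). GSC1-3 also had the highest brain score, and being highest in GSC1-3 was not particular to fibroblast markers. It held for 12 of 12 mature oligodendrocyte, 7 of 12 neuron, 6 of 10 astrocyte and 8 of 18 endothelial genes. It held for 0 of 10 microglia and macrophage, 0 of 10 mitosis and 0 of 7 choroid plexus genes. The share over all genes was not computed. The part of fibroblasts in the Acta2 and Tagln values was not tested.

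**Figure D5:**
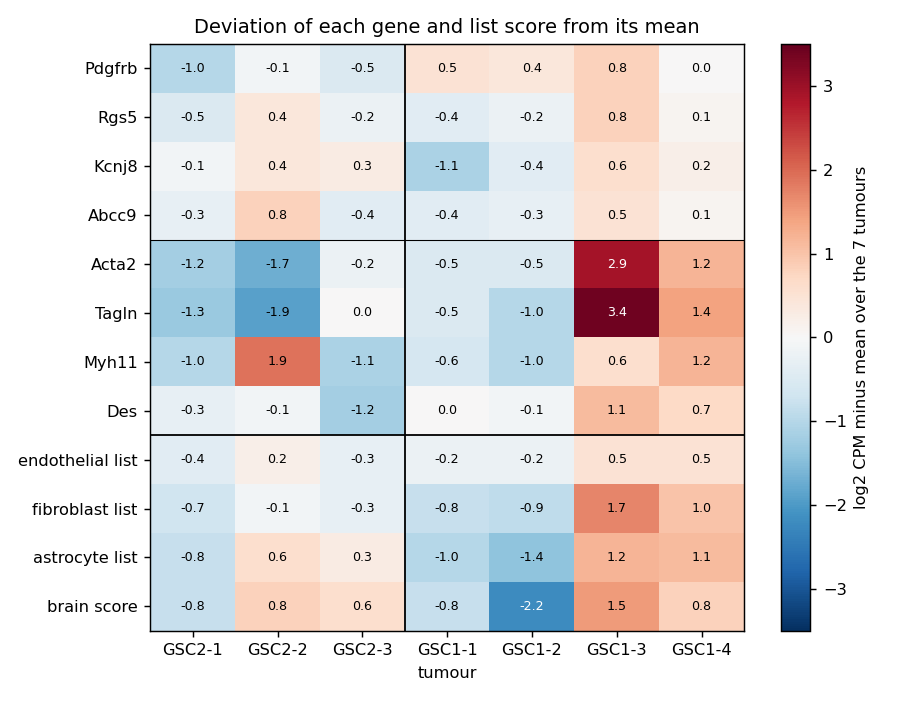
Log2 CPM of each gene, and the mean log2 CPM of marker lists and the brain score, minus the mean over the 7 tumours, with GSC2 tumours left of the line. Acta2 and Tagln stand 2.9 and 3.4 above their means in GSC1-3, and Myh11 stands 1.9 above in GSC2-2. In GSC1-3 the fibroblast list stands 1.7, the brain score 1.5, the astrocyte list 1.2 and the endothelial list 0.5 above.

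The other pericyte genes gave a mixed picture. Of 20 tested, 6 had a positive and 14 a negative log2 fold change, with a median of -0.32, and 0 passed. At an unadjusted p under 0.05 there were 2, Mcam and Ifitm1, both lower in GSC2, against 4.21% of all genes. The lines did not overlap for the same 2 of the 20, against 5.58% of all genes. Mcam, which encodes the adhesion protein CD146 of pericytes and endothelium, was at 30.3, 37.1 and 36.5 CPM in GSC2-1 to GSC2-3, against 68.5, 71.1, 77.4 and 53.6 CPM in GSC1-1 to GSC1-4. As for Pdgfrb, every GSC2 tumour lay under every GSC1 tumour (log2 fold change -0.97, SE 0.22, edgeR adjusted p = 0.549), and DESeq2 called this gene (adjusted p = 0.000602). Ifitm1, an interferon-inducible membrane protein gene, was at 7.29 to 11.5 CPM in GSC2 and 12.1 to 25.0 CPM in GSC1 (-0.82, SE 0.35). Tbx2, a T-box factor gene, was at 4.81 to 11.6 CPM in GSC2 and 0.874 to 5.62 CPM in GSC1 (1.43, SE 0.66), and Gjc1, the connexin 45 gene, at 11.3 to 24.6 CPM in GSC2 and 13.6 to 63.7 CPM in GSC1 (-1.01, SE 0.64).

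Among the other contractile genes 5 of the 17 tested had a positive and 12 a negative log2 fold change, with a median of -0.51. None passed, and 0 had an unadjusted p under 0.05, against 4.21% of all genes. Synpo2, the myopodin gene of actin bundles in muscle, was at 5.597, 55.6 and 8.47 CPM in GSC2-1 to GSC2-3, against 3.48, 3.05, 9.82 and 12.1 CPM in GSC1-1 to GSC1-4. GSC2-2 was the highest tumour by far, as for Myh11. The log2 fold change was 1.71 over all tumours (SE 0.88) and -0.01 without GSC2-2. The longest Synpo2 transcript is 9203 bases, and GSC2-2 was the library in which long transcripts read highest. The part of length in this value was not tested. Tropomyosin genes were at 155 to 195 CPM in GSC2 and 180.0 to 279 CPM in GSC1 for Tpm1 (-0.50, SE 0.23), and at 3.31 to 10.3 CPM in GSC2 and 9.30 to 17.9 CPM in GSC1 for Tpm2 (-0.97, SE 0.45). Myl6, a myosin light chain gene active in most cells, was at 271 to 460 CPM in GSC2 and 387 to 678 CPM in GSC1 (-0.60, SE 0.32).

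Of the 21 ligand and receptor genes that act on mural cells, 8 had a positive and 13 a negative log2 fold change, with a median of -0.21. Pdgfb, the ligand gene for the Pdgfrb product, was at 19.0, 20.9 and 19.5 CPM in GSC2-1 to GSC2-3, against 27.1, 17.1, 14.4 and 16.3 CPM in GSC1-1 to GSC1-4, and the lines overlapped. Angpt2, whose product loosens the contact of mural cells with endothelium, was at 16.1, 19.4 and 24.8 CPM in GSC2-1 to GSC2-3, against 10.4, 7.17, 4.53 and 7.43 CPM in GSC1-1 to GSC1-4 (log2 fold change 1.45, SE 0.34, edgeR adjusted p = 0.595). All 3 GSC2 tumours were above all GSC1 tumours. Edn1, the gene for the vessel constrictor endothelin 1, was at 1.05 to 2.44 CPM in GSC2 and 4.89 to 9.46 CPM in GSC1 (-1.72, SE 0.46, adjusted p = 0.702). Tgfb3 was at 54.4 to 89.2 CPM in GSC2 and 156 to 741 CPM in GSC1 (-2.62, SE 0.67, adjusted p = 0.676), and it was highest in GSC1-1 and GSC1-2, the GSC1 tumours with little Acta2. Lines did not overlap for 3 of the 21 genes of this list, against 5.58% of all genes, and 0 passed in edgeR. DESeq2, which called 1.2% of all genes, called Angpt2, Edn1 and Tgfb3 with adjusted p of 0.0108, 0.0114 and 0.00611. S1pr1, a receptor gene for sphingosine 1-phosphate, was at 74.9 to 147 CPM in GSC2 and 123 to 172 CPM in GSC1 (-0.51, SE 0.28).

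Near relatives of the 8 genes are genes of the same families. Actg2, which encodes the enteric smooth muscle actin and is nearly identical to the product of Acta2, was at 0.0351 to 0.407 CPM in GSC2 and reached 3.58 CPM in GSC1-3, its highest tumour as for Acta2, with no read in GSC1-4. The cytoplasmic actin genes Actb and Actg1 stayed within 2258 to 2877 and 739 to 1141 CPM in GSC2, and 2710 to 3266 and 911 to 1274 CPM in GSC1. Tagln2, a paralog of Tagln found in many cells, was at 150 to 229 CPM in GSC2 and 182 to 314 CPM in GSC1. Tagln3, a neuronal paralog, was at 30.4, 95.2 and 109 CPM in GSC2-1 to GSC2-3, against 49.7, 11.6, 380 and 260.0 CPM in GSC1-1 to GSC1-4 (log2 fold change -1.16, SE 1.07). Its 3 highest tumours were those of Acta2 and Tagln, in the same order. Pdgfra, the alpha receptor of progenitors and fibroblasts, was at 53.5 to 92.8 CPM in GSC2 and 57.7 to 71.1 CPM in GSC1. The nonmuscle myosin gene Myh9 was at 105 to 748 CPM in GSC2 and 109 to 1544 CPM in GSC1, lowest in the 3 libraries in which long transcripts read lowest.

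The genes most like the 2 groups across the 7 tumours were ranked by Pearson r with the mean standardised log2 CPM of each group, over 11933 genes with a mean of at least 5 CPM. For the pericyte genes these were Fgd5 (r = 0.978), which encodes an endothelial exchange factor for Cdc42, then Kctd3 (0.963), Pcdh17 (0.962), Tstd3 (0.959), Spg20 (0.954), Gpr153 (0.953), Tmem178b (0.953) and Pura (0.944). Fgd5 was at 4.43, 7.93 and 4.21 CPM in GSC2-1 to GSC2-3, against 4.17, 4.78, 9.14 and 5.95 CPM in GSC1-1 to GSC1-4, with GSC2-2 and GSC1-3 highest as for Rgs5. For the smooth muscle genes they were Tgm2 (r = 0.992), Th (0.990), Mapk9 (0.983), Card10 (0.98), Timp3 (0.977), Spire2 (0.977), Map2k4 (0.976) and Fbxl17 (0.974). Tgm2, the tissue transglutaminase gene, was at 78.8, 85.2 and 77.2 CPM in GSC2-1 to GSC2-3, against 80.6, 78.3, 120.2 and 104 CPM in GSC1-1 to GSC1-4. Th, the tyrosine hydroxylase gene of catecholamine neurons, was at 0.301 to 0.701 CPM in GSC2 and reached 29.6 CPM in GSC1-3 and 12.8 CPM in GSC1-4. These are the highest of many coefficients over 7 tumours and are given as a description.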

How the data were processed

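RNeasy Plus Mini columns and the NEBNext Ultra kit were used to make libraries from 7 tumours, per the labels' protocols. The authors deposited untransformed counts of reads for each Ensembl gene. The submitters' processing notes name TopHat2 2.0.11 and HTSeq, and the builds mm9 and dm3 without their use, while the counting mode and strand setting are in none of the sources. Each table held 37620 genes, and its 5 summary lines were left out. Library sizes for the CPM and the main test were summed over the 16068 genes tested, and those for the list scores over all genes. Of the listed reads, 6.19 to 14.2% fell on no gene. No 2 libraries agreed within sampling noise (lowest chi-square per degree of freedom 66.5). Symbols, matched for 32897 identifiers, and the length of the longest transcript came from GENCODE M21, a later annotation, and the promoters from RefSeq (GRCm38.p6).

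The main test was edgeR 4.0.16 in R 4.3.3 with TMM factors, filterByExpr, a robust quasi-likelihood fit and Benjamini-Hochberg adjustment over all genes. DESeq2 1.42.0 and limma 3.58.1 (voom) were alternatives. A log2 fold change is GSC2 over GSC1, and its SE is the fold change over the root of F. Correlations used log2 CPM with a prior count of 2 and two-sided exact permutation tests in Python 3.11.15, adjusted over 28 pairs or over 8 relations with a score. The test code was run on simulated data, and the outcome, including the power at this sample size, is not given here. Up to 4 genes per list were named by smallest p, besides the 8 members, their relatives and the 8 most alike genes of each group. Other genes named for their level beside a result, and the ratios shown, were chosen after values were seen. The members and lists were chosen with earlier results of these data known. Kcnj11, a relative of Kcnj8, was not analysed here. The tests measure the spread between tumours, of which counting error is only a part.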

Additional observations from a re-analysis of the deposited data

Results flagged for a closer look

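S1pr1 had one GSC1 tumour far from the rest of its line, with 123 CPM in GSC1-1 against 168 to 172 CPM in the other 3. Chance gives such a gap in about 1 of 20 groups, and of the genes named with a fold change this was the only one with such a gap among the 4 GSC1 tumours.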

How the results depend on the processing

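None of the 8 genes passed in any of the 19 alternative fits, although a filter at a mean of 5 CPM kept only 5 of them. Over all genes the number called was 0 in edgeR, 192 in DESeq2, 1 in limma-voom, 1 without the low-count filter, 80 with the brain score as a covariate, 55 without the 3 libraries in which long transcripts read lowest, and 44 without both GSC1-3 and GSC1-4, a setting added after seeing the data. It was 0 without each single tumour. The fold changes of the 8 genes kept their direction in 141 of 149 cases. Rgs5 turned to 0.23 with the endothelial score, 0.36 without the 3 libraries and 0.27 without both GSC1 tumours, and ranged from -0.4854 to 0.0906 with 1 tumour left out. Over those settings Kcnj8 ranged from -0.0138 to 0.4732, Abcc9 from -0.3615 to 0.3466, Myh11 from -1.33 to 0.8489, Synpo2 from -0.0115 to 2.1782 and Mrtfa from -0.3779 to 0.0859. Abcc9 was -0.13 with the length trend removed, Mrtfb -0.031 without the 3 libraries and -0.20 without both GSC1 tumours, Mrtfa 0.14 with the brain score, Pecam1 0.0179 and Cdh5 0.0031 without the 3 libraries, and Col1a1 0.0263 without both GSC1 tumours. The cause was not tested. Over all alternatives Acta2 ranged from -2.96 to -0.40 and Tagln from -3.44 to -0.21. Tgfb3 passed in edgeR with the brain score (adjusted p = 0.0226), without the 3 libraries (0.0228) and without both GSC1 tumours (0.0233).

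Of 28 pairs 1 passed, 0 when centred within each line and 1 to 2 with a tumour left out. When centred, a single pair could not pass, as 144 arrangements give no p small enough. With the endothelial score 0 of 8 passed by Pearson r, 2 with RLE factors and 0 to 6 with a tumour left out. By Spearman rho 0 passed in each of these settings. With the brain score 0 passed, and 0 to 1 with a tumour left out. The replicate numbers come from the tumour titles, which state no pairing or batch, and they were left out of the main test. Deviations of same-numbered tumours from their line means had r = 0.583, -0.306 and 0.409, which does not settle whether the numbers carry a shared factor. With a replicate block 0 genes and 0 of the 8 were called, with Pdgfrb at -1.06 and Acta2 at -1.65. Depth limits Myh11, which had 9 to 23 reads in 4 tumours.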
